A study of Mus musculus with 6 samples.

Results

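The genes described here are 10 genes of cellular iron uptake, storage and export: Fth1, Ftl1, Tfrc, Slc40a1, Slc11a1, Slc11a2, Ncoa4, Ireb2, Hfe and Hmox1. They were chosen by gene symbol from a table of read counts for 31205 genes, and all 10 were present and expressed highly enough to be tested. RNA-seq libraries came from DC2.4, a mouse dendritic cell line, in 2 groups of 3 libraries. One group carries the genotype label Control, and the other is a derivative of the line with the genotype label PD-L1 knockout. PD-L1, the product of Cd274, binds the inhibitory receptor PD-1 on T cells, and the title of the series links it to ferroptosis, a cell death by iron-dependent lipid peroxidation. The labels name no treatment, age or time for these libraries, and they do not say how the knockout was made, whether it is 1 clone, or whether a group's libraries are separate cultures. The p-values therefore set differences against a spread between libraries that may be technical only.

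Cells take up iron mostly as transferrin bound to the transferrin receptor, reduce it in the endosome and move it to the cytosol through a divalent metal transporter. Ferritin, a shell of heavy and light chains, stores what is not used, and ferroportin is the transporter through which iron leaves the cell. Iron regulatory proteins bind a short RNA hairpin, the iron-responsive element, when iron is scarce: in a 5′ untranslated region this blocks translation, and in the 3′ untranslated region of the transferrin receptor it protects the transcript from decay. Much of the control of ferritin by iron thus acts on translation, which RNA-seq does not measure. Macrophages and related phagocytes also recover iron from the heme of ingested red cells through heme oxygenase and release it through ferroportin.

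The hairpins are shown first because they separate these genes by the kind of control that is known for them. The GENCODE M21 transcripts (GRCm38, the same assembly as mm10) were searched for a C bulge, a stem of 5 positions of which at least 4 pair, and a loop of CAGTGN. Each element below is 27 bases long and is given 5′ to 3′ on the gene's own strand, as DNA, with the bulged C and the loop in capitals. The 5′ elements of the ferritin chains and of ferroportin were these.
Fth1, chr19:9982733-9982759, plus strand: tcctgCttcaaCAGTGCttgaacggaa
Ftl1, chr7:45459780-45459806, minus strand: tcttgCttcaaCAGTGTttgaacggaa
Slc40a1, chr1:45925466-45925492, minus strand: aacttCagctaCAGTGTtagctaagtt
The 3′ untranslated region of Tfrc held 4 elements on chromosome 16, plus strand, and that of Slc11a2 held 1.
Tfrc, chr16:32631220-32631246: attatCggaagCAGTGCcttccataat
Tfrc, chr16:32631599-32631625: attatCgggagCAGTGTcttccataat
Tfrc, chr16:32631664-32631690: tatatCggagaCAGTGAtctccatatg
Tfrc, chr16:32631711-32631737: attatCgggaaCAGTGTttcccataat
Slc11a2, chr15:100395154-100395180, minus strand: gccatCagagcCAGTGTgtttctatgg
The Slc11a2 element paired at 4 of 5 stem positions and the others at all 5. The same search matched the 5′ untranslated region of 199 of 20916 genes (0.951%) and the 3′ untranslated region of 865 of 21045 (4.11%), so a match is a description of letters and not proof of a working element. The other 5 genes had no match, which says only that these letters are absent from their annotated untranslated regions.

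The libraries held between 10918498 and 23250065 counts, of which Fth1 and Ftl1 together took 1.58% to 1.92%. Cd274, the targeted gene, did not fall in the knockout-labelled libraries (52, 99 and 171 counts in control 1, 2 and 3, and 102, 81 and 163 in knockout 1, 2 and 3; edgeR 0.28 on the log2 scale, SE 0.25, adjusted p = 0.415). A transcript count does not check a change within the coding sequence, so directions are as good as the labels, and "knockout" stands for the libraries so labelled. All 7 leukocyte markers were expressed, and 9 of 17 dendritic cell markers passed the filter on low counts, with Cd74, Irf8, Cd80 and Cd86 among them. Of these 9, Cd80 was called higher in knockout (edgeR 0.53 on the log2 scale, adjusted p = 0.0318) and Zbtb46 lower (-0.72, 0.0490). Among all tested genes 11.8% were called higher and 13.5% lower. The dendritic cell markers Flt3, Batf3, Xcr1, Ccr7, H2-Aa, H2-Ab1 and Ciita had 11 counts or fewer in every library, and Clec9a had 0. Control library 2 stood apart by stromal transcripts, with 2235 counts of Col1a1 and 1382 of Fn1 and a summed level of the 10 stromal markers of 220.2 CPM (counts relative to the library's total, scaled between libraries by TMM factors) against at most 1.16 in the other 5 libraries. Knockout library 1 stood apart on the second principal component of all genes (15.8% of the variance). Calls of the listed iron genes that end without 1 of these 2 libraries are given with that value or with the count of their list.

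To compare genes with each other, CPM was divided by the length of each gene's main transcript. On this scale Fth1 was the highest of 11392 ranked genes in both groups, with 11597 ± 1374 CPM per kb in control (SD, n = 3). Ftl1 had rank 3 in control, at 5430 ± 396, and rank 2 in knockout, at 7703 ± 95.1. Hmox1 followed at 397 ± 110.1 CPM per kb in control, then Tfrc at 102 ± 19.6 and Slc11a1 at 58.3 ± 5.19. Lower down came Ncoa4 (27.2 ± 1.85), Ireb2 (21.4 ± 1.45), Slc11a2 (14.4 ± 2.71) and Slc40a1 (12.9 ± 6.19). Hfe was the lowest of the 10, at 1.92 ± 0.16 CPM per kb and rank 9532. Among neighbours in this order, only Slc11a2 and Slc40a1 had overlapping ranges in control. In knockout those 2 did not overlap, because all Slc40a1 libraries lay between 2.95 and 3.89 CPM per kb against 12.0 to 14.0 for Slc11a2, and Ncoa4 and Ireb2 overlapped instead.

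**Figure D1:**
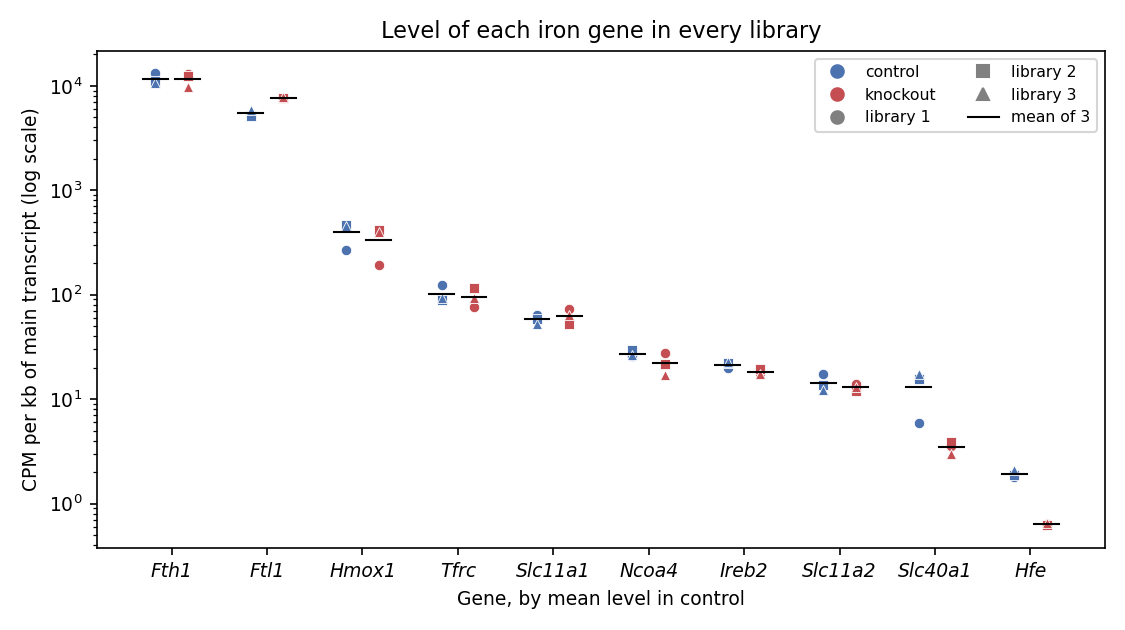
Level of each of the 10 iron genes in every library, in CPM per kb of main transcript on a log axis, with genes ordered by their mean in control. Points are libraries (shape gives the library number), colours give the group and bars the mean of 3. Fth1 and Ftl1 lie above the other 8 genes in every library, and for Ftl1, Ireb2, Slc40a1 and Hfe the control and knockout points do not overlap.

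Across the 10 genes, 1 rose in knockout (Ftl1) and 2 fell (Slc40a1 and Hfe) by edgeR's quasi-likelihood test at an adjusted p of 0.05. Over all 11453 genes tested, 25.3% were called, 11.8% higher and 13.5% lower, so 3 of 10 is close to the share of genes called in general. Groups did not overlap for 4 of the 10, against 43.0% of all tested genes.

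**Figure D2:**
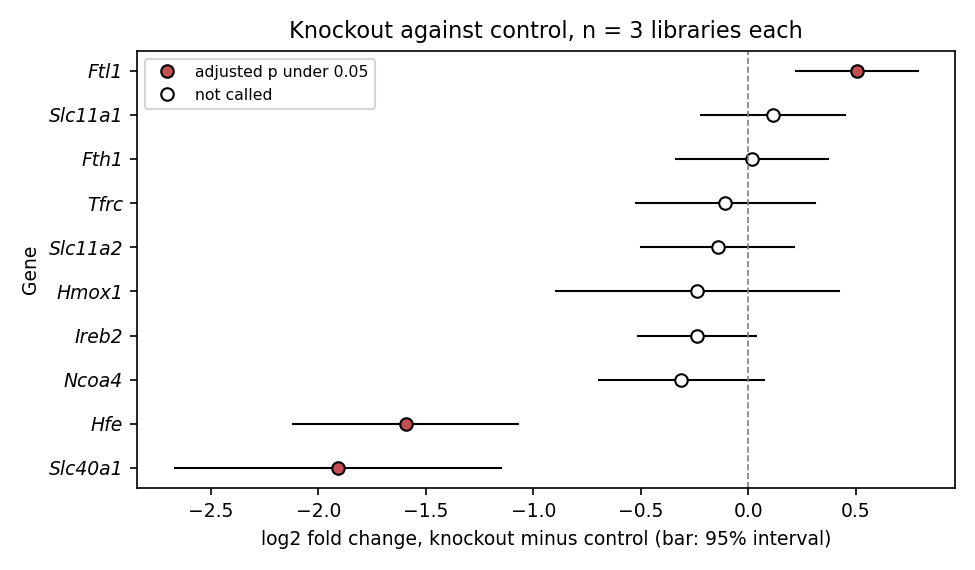
Log2 fold change of each gene, knockout minus control, with its 95% interval from the edgeR fit (n = 3 libraries a group). Filled points passed an adjusted p of 0.05: Ftl1 at 0.50, Hfe at -1.59 and Slc40a1 at -1.91.

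For iron storage, transcripts of the ferritin chains were measured, and neither ferritin protein nor iron was. Ftl1 encodes the light chain, which aids the laying down of the iron core (ENSMUSG00000050708.16, chromosome 7, 45457944 to 45459884). Its level was 5072, 4999.7 and 5697 CPM in control libraries 1, 2 and 3 and 7464, 7361 and 7545 CPM in knockout libraries 1, 2 and 3. Every knockout library was above every control library, and the knockout libraries lay close together. The means were 5256 ± 383 and 7457 ± 92.0 CPM (SD, n = 3), a 1.42-fold rise (edgeR: 0.50 on the log2 scale, SE 0.13, 95% interval 0.22 to 0.79, adjusted p = 0.0196). The call was lost in the edgeR fit when each library's trend with transcript length and GC content was removed, with a log2 fold change of 0.29 (adjusted p = 0.105) in the plain form of that correction and 0.17 (0.324) in a robust, centred form. Leaving out 1 library also ended it in 3 cases: control library 2 (0.47, adjusted p = 0.131), control library 3 (0.57, 0.0501) and knockout library 3 (0.50, 0.0675).

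Fth1 encodes the heavy chain, the ferroxidase that oxidizes iron on its way into the shell (ENSMUSG00000024661.7, chromosome 19, 9980598 to 9985098). It stood at 12215, 10319 and 9786 CPM in control and at 12116, 11504 and 9076 CPM in knockout. The groups overlapped throughout. The log2 fold change was 0.02 (SE 0.16, 95% interval -0.33 to 0.37, edgeR adjusted p = 0.945), and its sign depended on the scaling. Knockout library 1 and control library 1 were the highest of their groups.

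The ratio of light to heavy chain counts within a library does not depend on scaling between libraries. It was 0.415, 0.485 and 0.582 in control and 0.616, 0.640 and 0.831 in knockout. All knockout libraries were above all control libraries, although knockout libraries 1 and 2 lay nearer to control library 3 than to knockout library 3. The difference in log2 ratio was 0.49, with an exact two-sided permutation p of 0.1, the smallest that 3 libraries against 3 allow. Leaving out 1 library at a time gave differences between 0.36 and 0.62. The ratio was taken from counts without the length and GC correction. With the plain form of that correction the log2 fold changes were 0.29 for Ftl1 and -0.00067 for Fth1. With the centred form they were 0.17 for Ftl1 and -0.076 for Fth1.

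**Figure D3:**
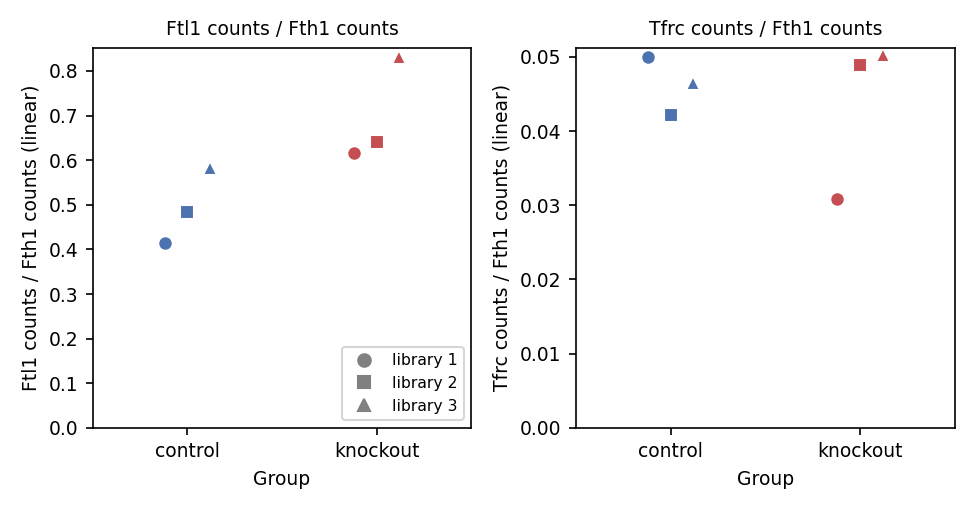
Ratios of counts within each library, without the length and GC correction, on linear axes that start at 0. Ftl1 to Fth1 is on the left and Tfrc to Fth1 on the right, by group, with the point's shape giving the library number. The Ftl1 to Fth1 ratio reached at most 0.582 in control and was at least 0.616 in knockout, while the Tfrc to Fth1 ratios overlapped and knockout library 1 was the lowest, at 0.0309.

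Ferritin has many processed copies in the mouse genome, and reads that match several of them may have been split or dropped by the authors' counting. The table named 10 ferritin genes and copies, of which 7 had 0 counts in all libraries, so that reads fell on Fth1, Ftl1 and Ftl1-ps1. Ftl1-ps1, a light chain pseudogene, rose with Ftl1, from 17.8 ± 3.91 to 38.0 ± 4.28 CPM (edgeR: 1.10 on the log2 scale, SE 0.18, adjusted p = 0.00425). It amounted to 0.279% to 0.566% of the Ftl1 counts, and whether its reads came from Ftl1 was not tested. The exons of Ftl1 also overlap 2 small annotated genes, Gm10252 on the opposite strand and Gm22133 on the same one, neither of which has counts of its own here.

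Ncoa4 is the receptor that carries ferritin to the lysosome for degradation (chromosome 14, 32159865 to 32179855). It measured 105, 119 and 108 CPM in control and 111, 87.4 and 69.4 in knockout. Knockout libraries 2 and 3 were below all controls and knockout library 1 was not. The difference was not called (edgeR: -0.31 on the log2 scale, SE 0.17, adjusted p = 0.200) but was called without knockout library 1 (-0.50, adjusted p = 0.0143).

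On the uptake side, neither Tfrc nor Slc11a2 passed the test. Slc11a1, which the role lists further on place with endolysosomal genes, did not pass it either. Tfrc, the transferrin receptor (chromosome 16, 32608920 to 32632794), stood at 611, 436 and 454 CPM in control and 374, 562 and 456 in knockout. Control library 1 was the highest and knockout library 1 the lowest of all 6, and the remaining 4 were mixed. The log2 fold change was -0.11 (SE 0.19, 95% interval -0.52 to 0.31, edgeR adjusted p = 0.693). The interval reaches to both sides of 0 and does not show that the levels were alike.

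The ratio of Tfrc to Fth1 counts sets the receptor against the store. It was 0.04998, 0.0422 and 0.0464 in control and 0.0309, 0.0489 and 0.0503 in knockout, and the groups overlapped. The difference in log2 ratio was -0.12 (exact two-sided permutation p = 0.9), and it rested on knockout library 1: without it the difference was 0.10.

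Slc11a2 encodes the divalent metal transporter DMT1, which moves iron out of the endosome (chromosome 15, 100387898 to 100425072). Its levels were 52.6, 41.7 and 36.6 CPM in control and 42.4, 36.3 and 39.5 in knockout, with overlapping groups (edgeR: -0.14 on the log2 scale, SE 0.16, adjusted p = 0.532). Slc11a1 encodes NRAMP1, the metal transporter of the phagosome membrane in macrophages and related cells (chromosome 1, 74375195 to 74386062). It measured 146, 136 and 122 CPM in control and 168, 121 and 148 in knockout, again overlapping (0.11, SE 0.15, edgeR adjusted p = 0.604).

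In the main fit the largest difference among the 10 genes was in export, though its interval overlapped that of Hfe. After the plain length and GC correction the 2 were near each other (-1.60 for Slc40a1 and -1.61 for Hfe). Slc40a1 encodes ferroportin, the only iron exporter known in mammals (ENSMUSG00000025993.10, chromosome 1, 45908068 to 45926523). It stood at 19.8, 52.4 and 58.5 CPM in control libraries 1, 2 and 3 and at 12.1, 13.1 and 9.95 CPM in knockout. Control library 1 lay well below the other controls but still above every knockout library. The means were 43.6 ± 20.8 and 11.7 ± 1.61 CPM (SD, n = 3), a 3.75-fold fall (edgeR: -1.91 on the log2 scale, SE 0.34, 95% interval -2.67 to -1.15, adjusted p = 0.00604). The fall was called under all 16 alternative settings. Leaving out 1 library at a time, the log2 fold change lay between -2.25 (without control library 1) and -1.63 (without control library 3).

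Ferroportin is abundant in macrophages, so macrophage markers were set beside it. Of 14 listed, 7 were tested and 5 of these were lower in knockout (Csf1r, Lyz2, Fcgr1 and Cd163 among them), beside 13.5% of all tested genes. None was higher. Adgre1 (edgeR -0.09 on the log2 scale, adjusted p = 0.680) and Cd68 (0.04, 0.902) were not called. Cd163 is also among the uptake genes described further on. The summed level of all 14 was 928 to 1188 CPM in control and 691 to 1045 in knockout. The markers of iron-recycling macrophages Vsig4, Timd4 and Vcam1 were at 0 in every library, and Spic, a transcription factor of those cells, had at most 2 counts. Fewer cells of one kind and less RNA per cell cannot be told apart in bulk libraries, and the part of these markers in the ferroportin result was not tested.

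Of the genes that sense iron, Hfe fell. Hfe encodes an MHC class I-like protein that binds the transferrin receptor and acts in iron sensing (ENSMUSG00000006611.15, chromosome 13, 23702034 to 23710854). It measured 6.35, 6.76 and 7.47 CPM in control and 2.26, 2.22 and 2.34 in knockout. Both groups were tight and lay far apart, on 71 to 187 counts a library in control and 30 to 47 in knockout. The means were 6.86 ± 0.57 and 2.27 ± 0.061 CPM (SD, n = 3), a 3.02-fold fall (edgeR: -1.59 on the log2 scale, SE 0.23, 95% interval -2.12 to -1.07, adjusted p = 0.00272). This fall, too, was called under all 16 alternative settings.

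Ireb2 encodes IRP2, one of the iron regulatory proteins that bind iron-responsive elements (chromosome 9, 54863789 to 54912530). Its levels were 114, 127 and 129 CPM in control and 102, 112 and 100.2 in knockout. The groups did not overlap, but the gap between control library 1 and knockout library 2 was small, and the difference was not called (edgeR: -0.24 on the log2 scale, SE 0.12, adjusted p = 0.172). It was called when libraries were scaled by total counts alone (-0.39, adjusted p = 0.0424), a scaling that moved the median of all genes to -0.14. With the plain length and GC correction, which moved that median to 0.13, its log2 fold change was 0.07.

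Hmox1 encodes the inducible heme oxygenase, which frees iron from heme (chromosome 8, 75093621 to 75100589). It stood at 424, 731 and 714 CPM in control and 299, 655 and 631 in knockout. Library 1 was the low one in both groups, and the groups overlapped. The log2 fold change was -0.24 (SE 0.30, edgeR adjusted p = 0.576), and without knockout library 1 it was 0.04.

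The genes with 5′ hairpins did not move together. Ftl1 rose, Slc40a1 fell and Fth1 was not called. Of the other genes listed for a known 5′ element, Epas1, a hypoxia-inducible factor subunit, fell from 1.25, 3.85 and 3.72 CPM to 0, 0.74 and 0.25 (edgeR -3.15 on the log2 scale, adjusted p = 0.0151). The hairpin search described above had no match in Epas1. Its adjusted p was 0.0682 without control 2 and 0.0623 without knockout 3. Alas2, the erythroid enzyme of heme synthesis, was too low to test. Of the genes with 3′ elements, Tfrc, Slc11a2 and the phosphatase Cdc14a (0.01, edgeR adjusted p = 0.963) were tested and none was called.

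Other genes of iron metabolism were taken from lists by role, 122 genes in all with the 10 included. Of the 100 that were tested, 16 were higher and 13 lower (29.0%), close to the 25.3% of all tested genes (11.8% higher and 13.5% lower), with a median log2 fold change of 0.07 against 0.01 for all tested genes. Leaving out the 10 gave 15 higher and 11 lower of 90 (28.9%). The total depended strongly on single libraries. Without control library 2, the library with stromal transcripts, 1 of the 100 was higher and 5 were lower, and without knockout library 1 the numbers were 28 and 16.

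Of 4 tested export genes, 3 fell (Slc40a1, Trf and Abcg2), where 13.5% of all tested genes did. The fourth, Flvcr1, a heme exporter named here after its values were seen, lay at 45.5 to 50.02 CPM in control and 54.7 to 63.5 in knockout and was not called (0.30, adjusted p = 0.108). The list had 1 gene called higher beside the 3 lower after the plain length and GC correction and without knockout library 1. Trf, which encodes the plasma iron carrier transferrin, measured 8.32, 16.5 and 16.4 CPM in control and 4.76, 5.31 and 4.97 in knockout (edgeR: -1.47 on the log2 scale, SE 0.27, adjusted p = 0.00685). Control library 1 was low for Trf, as it was for Slc40a1, and it stayed above all knockout libraries. Abcg2, a transporter of heme and other compounds, was near the detection limit, at 0.77 to 1.43 CPM in control and 0.27 to 0.38 in knockout (-1.82, adjusted p = 0.0194). The adjusted p for Abcg2 rose to 0.0529 without control 2, 0.0679 without control 3, 0.0794 without knockout 2 and 0.0771 without knockout 3.

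Of 8 tested uptake genes, 2 fell and none rose (median log2 fold change -0.13), beside 13.5% lower among all tested genes. The direction depended on the setting: 2 were higher and 1 lower after the plain length and GC correction (median 0.06), and 1 and 1 after the centred one and without control library 1. Cd163, the scavenger receptor for hemoglobin bound to haptoglobin, was at 0.95 to 1.28 CPM in control and 0.08 to 0.20 in knockout (edgeR -2.70 on the log2 scale, adjusted p = 0.0069). Lrp1, a large endocytic receptor that takes up heme bound to hemopexin, fell from between 299.6 and 472 CPM in control to between 127 and 279 in knockout (-1.07, adjusted p = 0.0211). The plain length and GC correction ended the Lrp1 call (-0.22, adjusted p = 0.283). Its adjusted p was 0.0622 without control 1, 0.0927 without control 2, 0.0729 without knockout 2 and 0.0803 without knockout 3.

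Among 9 tested storage genes, 2 rose and 3 fell, beside 11.8% higher and 13.5% lower among all tested genes. Without control library 2 none of the 9 was called. Besides Ftl1, the iron chaperone Pcbp1, which delivers iron to ferritin, rose (457 to 464 CPM in control, 536 to 799 in knockout, edgeR 0.61 on the log2 scale, adjusted p = 0.0244). Prnp, the prion protein (-1.33, adjusted p = 0.0133), Herc2, a ubiquitin ligase that targets Ncoa4 (-1.18, 0.0146), and the autophagy receptor Nbr1 (-0.44, 0.0497) fell. Pcbp1 kept its call in only 1 of the 6 fits that left out a library, the one without knockout library 1 (adjusted p = 0.000534), and the plain length and GC correction ended it (0.42, adjusted p = 0.053). The same correction ended the call of Herc2 (-0.45, adjusted p = 0.0652), whose adjusted p was 0.0706 without control 2, 0.0618 without knockout 2 and 0.0587 without knockout 3. For Prnp it was 0.0501 without control 2 and 0.0586 without knockout 2. Nbr1 was not called with no filter on low counts or with a replicate block (the library number as a factor). Nor was Nbr1 called after the plain or the centred length and GC correction.

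Of 19 tested genes of iron sensing and hepcidin signalling, 4 fell (21.1%) and none rose. Among all tested genes 13.5% were lower and 25.3% were called in either direction. Next to Hfe and Epas1 these were Neo1, a receptor that supports BMP signalling (1.399 to 2.77 CPM in control, 0 to 0.27 in knockout, edgeR -3.59 on the log2 scale, adjusted p = 0.00528), and Smad4, a mediator of that signalling (-0.39, adjusted p = 0.0445). Smad4 kept its call in only 1 of the 6 fits that left out a library, the one without knockout library 1, and lost it with no filter on low counts (-0.38, adjusted p = 0.093).

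Of 24 tested mitochondrial iron genes, 8 were called higher and none lower (median log2 fold change 0.36), where 11.8% of all tested genes were called higher. Glrx5, a glutaredoxin of iron-sulfur cluster transfer, rose from 120.2, 90.1 and 102 CPM to 155, 245 and 207 (edgeR: 0.96 on the log2 scale, SE 0.18, adjusted p = 0.00763). Knockout library 1 was the lowest of its group and still above all controls. The ferredoxin reductase Fdxr (0.63, adjusted p = 0.008) and the cluster carrier Nfu1 (0.65, 0.00893) rose as well, as did Cisd1, Iscu, Lyrm4 and Tmem14c. Without control library 2, Glrx5 was the 1 gene of the 24 still called (adjusted p = 0.0481), with 0.0525 for Fdxr and 0.0623 for Nfu1. Of the cytosolic iron-sulfur assembly genes, 3 of 10 rose: Nubp1 (0.59, adjusted p = 0.0165), Ciao2b (0.55, 0.0198) and Nubp2 (0.65, 0.0337). Without control library 2 these 3 had adjusted p-values of 0.0948, 0.103 and 0.148, and after the plain length and GC correction Ciao2b (0.31, adjusted p = 0.0836) and Nubp2 (0.50, 0.060) were not called. Both counts moved with the setting. For mitochondrial genes it was 6 higher and 1 lower with total counts alone, 10 and 0 after the plain length and GC correction and 6 and 0 after the centred one, while heme genes had 2 higher and 3 lower with total counts alone and cytosolic iron-sulfur genes 1 and 0. Without knockout library 1 the mitochondrial count was 13 and 0.

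Heme genes had 2 of 17 higher (11.8%) and none lower, the same share as the 11.8% of all tested genes called higher. These were the constitutive heme oxygenase Hmox2 (28.2 to 39.6 CPM in control, 48.9 to 54.7 in knockout, edgeR 0.66 on the log2 scale, adjusted p = 0.0161) and Alad, an enzyme of heme synthesis (0.73, adjusted p = 0.0188). Of 9 endolysosomal genes, 22.2% were called, beside 25.3% of all tested genes. Snx3, which recycles the transferrin receptor, was higher (0.61, adjusted p = 0.0372) and the lysosomal channel Tpcn2 was lower (-0.59, 0.0298). Without control library 2 none of these 4 was called (adjusted p 0.0892 for Hmox2, 0.0935 for Alad, 0.112 for Snx3 and 0.0883 for Tpcn2). Snx3 was also not called with total counts alone (adjusted p = 0.086), and neither Snx3 nor Tpcn2 was called after the plain (0.0881 and 0.0991) or the centred (0.226 and 0.0545) length and GC correction. Alad was not called after the centred one (0.0508).

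**Figure D4:**
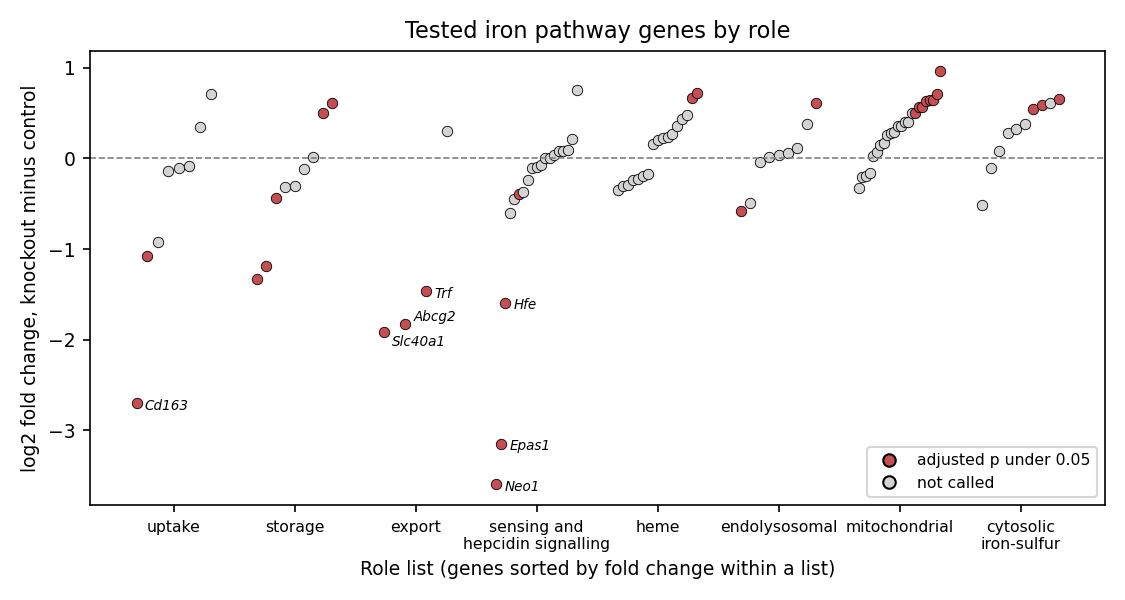
Log2 fold change, knockout minus control, of the 100 tested iron genes, grouped by role and sorted within a role. Red points passed an adjusted p of 0.05 in the edgeR fit, and called genes beyond 1.4 in size are named. Among the called genes, export, uptake and sensing genes lie below 0 (3 of 4, 2 of 8 and 4 of 19 tested). Mitochondrial, cytosolic iron-sulfur and heme genes lie above it (8 of 24, 3 of 10 and 2 of 17). Storage genes (2 above and 3 below, of 9) and endolysosomal genes (1 and 1, of 9) lie on both sides. Of all tested genes, 11.8% were called higher and 13.5% lower, and the counts in a list changed with the setting.

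For the 3 called genes, the 3 genes most like each were taken by Pearson correlation of log2 CPM over the 6 libraries, among 9278 genes. With so few libraries in 2 groups, many genes reach a high value: 696 genes exceeded 0.9 with Ftl1, 367 with Slc40a1 and 621 with Hfe. Ftl1 was most like Dera (r = 0.999), Mgat4b (0.996) and Cox7a2l (0.994). Slc40a1 was most like Foxo1 (0.996), Uevld (0.995) and Abi1 (0.994). Hfe was most like Itgav (0.998), Creb5 (0.997) and Arl6ip1 (0.996).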

How the data were processed

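The authors deposited 1 table of unscaled whole-number counts per gene for the 6 libraries. Libraries were made from total RNA taken up in TRIzol with a KAPA Hyper Prep kit, per the labels' protocols. Trimmomatic 0.39, STAR 2.7.5c, StringTie 2.1.7 and the build mm10 are named in the submitters' processing notes. How reads were counted, with which annotation and with which strand setting, is not given in the sources used here, so reads of overlapping genes on opposite strands cannot be told apart.

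Genes were filtered with filterByExpr (11453 of 31205 kept), scaled by TMM and tested with edgeR 4.0.16 (limma 3.58.1, R 4.3.3), as a two-sided contrast of knockout minus control. Benjamini-Hochberg adjustment ran over all tested genes, and an adjusted p under 0.05 was a call. The fit's common coefficient of variation was 17.5%. Totals were 10918498 to 23250065 counts, and the precision of a gene rests on its counts and on the spread between libraries. Ratios were tested by exact permutation over libraries. Positions, lengths, GC content and untranslated regions came from GENCODE M21, which held 30194 of the symbols as written and 307 under another name, but not 704, with 50 symbols that stood for more than 1 gene. On simulated counts with known changes, the test called 84 of 100 genes changed by 1 on the log2 scale, 96 of 96 changed by 2 and 16 of 11264 unchanged genes, among 11460 genes tested. The changed genes were a far smaller share there than the 25.3% called in the data, so these rates need not hold for the data.

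The 10 genes and the lists were chosen with earlier results of these data known. All 10 are named, as are Cd274, the called genes of lowest adjusted p in each list (at most 4, groups not overlapping), every tested gene with a listed iron-responsive element, and the 3 genes most like each called one (mean log2 CPM of at least 2, no predicted genes). Some genes that this rule selects are not reported here. Called genes of a list beyond these were named after their values were seen. Alternatives were DESeq2 size factors, total counts, no filter, at least 1 CPM in 3 libraries, the Wald test of DESeq2 1.42.0, a replicate block, removal of each library's trend with length and GC content (loess, span 0.3; 99.5% of tested genes had both), and leaving out each library. Further choices were made after results had been seen. The robust, centred form of the length and GC correction was added once the plain form had been run. Levels per kb use the main transcript because the summed exon length of Fth1 (3469 bases) far exceeded its main transcript (929). The hairpin search allows 1 unpaired stem position so that the known Slc11a2 element is found.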

Additional observations from a re-analysis of the deposited data

How the results depend on the processing

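Slc40a1 and Hfe were called lower, and Cd274 was not called, under all 16 alternatives. Leaving out each library in turn, genes called over the whole table ranged from 638 (without control library 2) to 4962 (without knockout library 1), iron pathway genes from 6 to 44 and the 10 genes from 2 to 4. The replicate block gave 3212, 31 and 3. For same-numbered libraries, deviations from the group means correlated at 0.15, -0.06 and 0.36 (libraries 1, 2 and 3). Other-numbered pairs ranged from -0.32 (control 3 with knockout 1) to 0.14 (control 2 with knockout 1). Whether the numbers pair the libraries was not tested further, and the main fit left them unpaired. With the replicate block Smad4 was not called (adjusted p = 0.0693), nor was it with no filter on low counts (0.093).

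Total counts alone called 667 genes higher and 2212 lower against 1353 and 1543, and in the pathway 11 and 19 against 16 and 13. The plain length and GC correction gave 2106 and 951, with 21 and 9, and the centred form 1344 and 1130, with 12 and 10. Both forms ended the call of Ftl1, also with the replicate block (0.29, adjusted p = 0.153, plain; 0.18, 0.333, centred). With the replicate block both called Hmox1 lower (-0.46, adjusted p = 0.0342, plain; -0.56, 0.016, centred). The plain form called Cdc14a (0.47, adjusted p = 0.0457).

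Log2 fold changes that turned sign were never called. For Fth1 they were -0.13 with total counts, -0.00067 and -0.0071 with the plain correction without and with the replicate block, and -0.076 and -0.084 with the centred one. Slc11a2 had 0.099 and 0.11 (plain), and 0.029 and 0.040 (centred). With the plain correction, without and with the replicate block, Ncoa4 had 0.042 and 0.030, Tfrc 0.017 and 0.038 and Ireb2 0.069 and 0.068. With total counts, Slc11a1 had -0.033 and Cdc14a -0.14. Leaving out libraries, the ranges were -0.070 to 0.14 (Fth1), -0.27 to 0.064 (Tfrc), -0.25 to 0.015 (Slc11a2), -0.0057 to 0.23 (Slc11a1), -0.45 to 0.041 (Hmox1), -0.042 to 0.054 (Cdc14a) and, for the Tfrc to Fth1 log2 ratio, -0.25 to 0.10. The causes were not tested.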
